A study of Mus musculus with 40 samples.

Results

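The 32 genes described here encode enzymes and regulators of cholesterol and fatty acid synthesis, and they were followed in mouse cardiac fibroblasts with and without deletion of TGFβ-activated kinase 1 (TAK1, encoded by *Map3k7*). They were listed by gene symbol, as 18 enzymes of sterol synthesis, 6 regulators and sterol transport genes, and 8 enzymes of fatty acid synthesis. All 32 were among the 25210 genes tested of 55414 gene identifiers. The fibroblasts came from hearts of male TAK1fl/fl mice on a C57BL/6J background, in which exon 2 of *Map3k7* is flanked by loxP sites, and every group carried this allele. Cells at passage 1, grown with serum, insulin, transferrin, selenium and bFGF, were transduced with adenovirus that expressed LacZ (control) or iCre, a Cre recombinase, from a CMV promoter. They were then held without serum and received no ligand (CTRL), bFGF at 20 ng/ml, TGFβ at 10 ng/ml, IL-1β at 15 ng/ml or TNFα at 10 ng/ml for 24 h. Virus and ligand gave 10 groups of 4 replicates each, in 40 libraries of polyadenylated RNA.

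Cholesterol is made from acetyl-CoA through mevalonate, isoprenoids, squalene and lanosterol, and fatty acids are made from the same acetyl-CoA by carboxylation, elongation and desaturation. Both pathways are driven by the SREBP transcription factors, which are carried by SCAP from the endoplasmic reticulum to the Golgi and cut there when sterols are low, and INSIG1 and INSIG2 hold SCAP back when sterols are plentiful. SREBPs act on promoters together with NF-Y and Sp1, and fibroblasts make cholesterol and fatty acids mainly for membranes.

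Sequence upstream of the transcription start was examined because many members changed together. In RefSeq promoter windows of GRCm38.p6 (250 bases before the start, both strands searched), 25 of the 32 genes had a window and 5 of these had several. The 5 were *Pmvk*, *Dhcr7*, *Insig2*, *Srebf1* and *Scap*. A gene was counted when any of its windows held the motif, which gives genes with several windows more room for a match. The NF-Y motif CCAAT occurred in 14 of 15 sterol enzyme genes (93.3%), in 4 of 5 regulator genes (80%) and in 1 of 5 fatty acid enzyme genes (20%), compared with 39.2% of 16500 protein-coding genes. The Sp1 motif GGGCGG was present in 14 of 15 sterol enzyme genes (93.3%), in all 5 regulator genes (100%) and in 2 of 5 fatty acid enzyme genes (40%), compared with 47.5% of protein-coding genes. The sterol response letters TCACNCCAC were present in 1 of 25 members (4%), which was *Hmgcs1*, and in 1.22% of protein-coding genes. These are matches of letters, and binding was not measured. The 150 bases shown for *Hmgcs1*, *Lss*, *Nsdhl*, *Hsd17b7* and *Insig2* belong to 4 sterol enzymes whose values are given in full and to the regulator that moved against them under TGFβ. Each reads 5′ to 3′ on the gene's strand, and capitals mark CCAAT or its reverse complement ATTGG and, in *Hmgcs1*, also TCACNCCAC. In the stretch of *Hmgcs1* (chr13:119690201-119690350, plus strand) the sterol response letters lay 137 bases before the start and 1 NF-Y motif 45 bases before it. The whole 250-base window of *Hmgcs1* held 3 NF-Y motifs. The stretches of *Lss* (chr10:76531438-76531587, plus strand), *Nsdhl* (chrX:72918371-72918520, plus strand), *Hsd17b7* (chr1:169969242-169969391, minus strand) and *Insig2* (chr1:121332590-121332739, minus strand) each held at least 1 NF-Y motif. The other windows of *Insig2*, at other starts, held none.
Hmgcs1: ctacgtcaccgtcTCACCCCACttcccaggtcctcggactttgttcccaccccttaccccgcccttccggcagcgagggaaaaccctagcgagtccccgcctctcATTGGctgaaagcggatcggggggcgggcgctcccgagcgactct
Lss: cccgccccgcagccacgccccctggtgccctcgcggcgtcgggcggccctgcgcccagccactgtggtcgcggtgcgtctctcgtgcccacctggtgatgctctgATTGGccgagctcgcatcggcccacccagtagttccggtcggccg
Nsdhl: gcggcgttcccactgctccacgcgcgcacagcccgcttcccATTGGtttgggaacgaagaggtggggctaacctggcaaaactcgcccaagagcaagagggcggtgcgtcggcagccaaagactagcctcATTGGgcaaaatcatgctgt
Hsd17b7: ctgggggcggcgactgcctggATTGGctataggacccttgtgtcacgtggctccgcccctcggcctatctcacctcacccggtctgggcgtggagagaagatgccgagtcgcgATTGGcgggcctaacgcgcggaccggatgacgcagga
Insig2: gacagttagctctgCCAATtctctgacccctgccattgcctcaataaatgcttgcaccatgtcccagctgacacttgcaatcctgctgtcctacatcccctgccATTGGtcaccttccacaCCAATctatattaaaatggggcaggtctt

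The libraries held 25360947 to 66160732 counted reads, with a median of 36183962. Levels are given in CPM, the counts of a gene scaled to the TMM library size, and calls were made with edgeR's quasi-likelihood test at a Benjamini-Hochberg adjusted p of at most 0.05 over all genes tested. *Map3k7* counts include exons outside the deleted one, and they were 144 to 159 CPM in LacZ and 123 to 133 CPM in iCre cells without ligand, and 199 to 237 and 122 to 130 CPM with IL-1β (log2FC -0.28, adjusted p = 0.137, or 0.00393 with the replicate block, and -0.82, adjusted p = 0.000274). Replicates of the same number deviated from their group means together, so the replicate number is also used as a block where this changes a count by more than 1.5 times or changes a call. In each library, the deviation of log2 CPM from the gene's mean over the 40 libraries was set against GC content. Its slope was 0.20 to 0.34 for each 10% of GC content in the 12 iCre libraries that received TGFβ, IL-1β or TNFα. In the 28 others of the series the slope was -0.25 to 0.00, and values corrected for GC are given beside several results. The 10 fibroblast markers summed to 15351 to 69714 CPM, and the 3 adipocyte markers tested to 0.773 to 23.5 CPM, with *Cidec*, *Lep* and *Cfd* too low to test. Of the exon bases of *Hmgcs1*, *Fdft1* and *Scap*, 12.1%, 18.3% and 13.2% overlap with genes on the other strand, and since the strand setting of the counts was not given, their counts are uncertain to that extent. These are bulk libraries, so fewer expressing cells and less RNA per cell cannot be told apart.

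Without ligand, LacZ fibroblasts already expressed the genes over a wide range. Per kilobase of exon, *Scd2*, a stearoyl-CoA desaturase that makes monounsaturated fatty acids, had the highest level at 98.2 ± 6.47 CPM per kb (SD, n = 4). The desaturases *Fads1* (48.6 ± 2.54), *Scd1* (47.5 ± 2.63) and *Fads2* (43.2 ± 5.05 CPM per kb) followed, and the mean ± SD ranges of these 3 overlapped. *Hmgcs1*, which makes HMG-CoA, led the sterol enzymes with 27.4 ± 2.64 CPM per kb. The lowest levels were those of *Tm7sf2*, a sterol reductase (2.51 ± 1.27), and *Acaca*, which encodes acetyl-CoA carboxylase (2.41 ± 0.233 CPM per kb).

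TGFβ raised nearly the whole set in LacZ fibroblasts, whereas *Insig2* fell. Of the 32 genes, 29 were higher and 1 was lower than in CTRL, when 17.5% of all genes tested were called higher and 19.3% lower. The median log2 fold change (log2FC) was 1.32 (range -0.65 to 2.56), against -0.17 over all genes. By role, 17 of 18 sterol enzymes, 4 of 6 regulators and all 8 fatty acid enzymes rose. *Tm7sf2* and *Scap* were not called, and *Tm7sf2* was called with the replicate block (log2FC 0.91, adjusted p = 3.8e-05). *Tm7sf2* shares exon sequence with *Vps51* on the same strand, and its counts are uncertain for this reason. Of the 10 fibroblast markers, *Col1a1*, *Col1a2* and *Postn* were higher with TGFβ and *Pdgfra*, *Ddr2* and *Dcn* lower, and their sum was 57153 to 66622 CPM against 30434 to 47665 CPM in CTRL. Of the 3 pericyte and smooth muscle markers, *Kcnj8* was lower (0.441 to 1.36 against 2.82 to 4.63 CPM), and the sum, which is mostly *Rgs5* (not called), was 404 to 938 against 87.8 to 538 CPM. *Plin1* and *Fabp4* of the adipocyte markers (sum 0.773 to 1.6 against 2.01 to 4.5 CPM) and *S100b* of the Schwann cell markers were lower. *Cd68* of the macrophage markers and *Tnnt2* of the cardiomyocyte markers (2.8 to 14.3 against 14.6 to 110 CPM for *Tnnt2*) were lower too. The macrophage sum overlapped with CTRL (23.1 to 87.6 against 49.8 to 144 CPM). The part of these markers in the result was not tested.

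**Figure D1:**
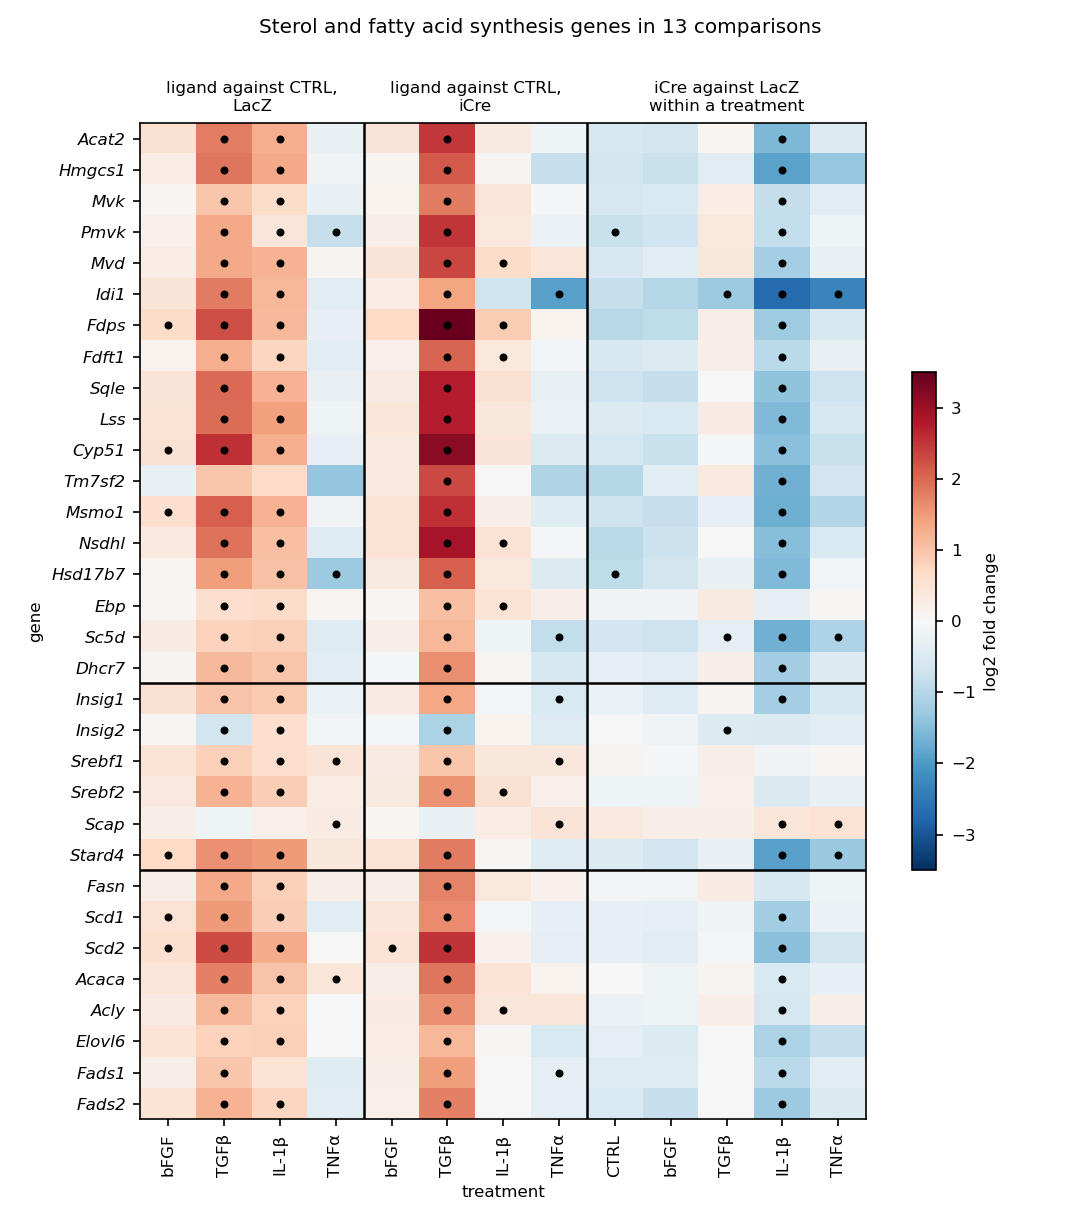
Fitted log2FC of the 32 genes (rows, ordered by role) in 8 comparisons of a ligand with CTRL and 5 of iCre with LacZ (columns), with colour for the size and direction and a black dot where the adjusted p was at most 0.05. The TGFβ columns are called for 30 genes in LacZ and 31 in iCre cells, and the IL-1β column for 29 genes in LacZ but 7 in iCre cells.

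Among the sterol enzymes, the largest rise under TGFβ was that of *Cyp51*, the lanosterol demethylase. Its 4 CTRL libraries had 75.0, 102, 86.6 and 92.8 CPM, and its TGFβ libraries had 500, 595, 520 and 459 CPM. The groups were far apart, with a log2FC of 2.56 (SE 0.12, adjusted p = 1e-06). *Fdps*, which makes farnesyl pyrophosphate, had 22.3, 37.1, 26.8 and 31.3 CPM in CTRL and 121, 188, 124 and 124 CPM with TGFβ (log2FC 2.26, SE 0.19, adjusted p = 1.08e-05). Replicate 2 was the highest of each group, and no library of one group reached the other. Part of the *Fdps* exons is shared with *Gm43738* on the same strand. *Hmgcs1* was at 112, 136, 120 and 136 CPM in CTRL and at 497, 483, 422 and 410 CPM with TGFβ, again without overlap (log2FC 1.86, SE 0.11, adjusted p = 1.89e-06). The isomerase *Idi1* (log2FC 1.83), the lanosterol synthase *Lss* (1.95) and the sterol dehydrogenase *Nsdhl* (1.91) rose to a like extent, and the sterol desaturase *Sc5d* rose less (0.82, SE 0.11, adjusted p = 0.000181).

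The regulators divided under TGFβ. *Insig2* was at 52.4, 61.3, 48.7 and 51.0 CPM in CTRL and at 34.4, 31.4, 36.5 and 31.4 CPM with TGFβ (log2FC -0.65, SE 0.09, adjusted p = 0.000359). All 4 TGFβ libraries lay below all 4 CTRL libraries. *Insig1*, whose product has the same role, went the other way, from 109, 138, 96.3 and 105 CPM to 246, 218, 221 and 203 CPM (log2FC 1.01, SE 0.12, adjusted p = 8.59e-05). *Srebf2*, which encodes the SREBP that mainly drives sterol genes, was at 143, 172, 141 and 154 CPM in CTRL and at 362, 379, 326 and 340 CPM with TGFβ (log2FC 1.23, SE 0.09, adjusted p = 7.42e-06). *Srebf1*, whose product mainly drives fatty acid genes, rose by a log2FC of 0.84 (SE 0.12, adjusted p = 0.000394), from 94.8, 71.5, 86.9 and 86.4 CPM to 175, 147, 142 and 136 CPM. The 2 groups of each SREBP gene were apart. *Scap* had 104, 113, 95.5 and 92.1 CPM in CTRL and 96.8, 86.8, 91.0 and 84.2 CPM with TGFβ, which overlapped (adjusted p = 0.206). *Stard4*, a cytosolic carrier of cholesterol, rose from 23.2, 26.2, 24.9 and 27.4 CPM to 79.7, 82.3, 69.9 and 75.0 CPM (log2FC 1.61, SE 0.09, adjusted p = 1.58e-06), and the groups were far apart.

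Of the fatty acid enzymes, *Scd2* changed most under TGFβ. It had 485, 566, 544 and 550 CPM in CTRL and 2555, 3262, 2165 and 2233 CPM with TGFβ (log2FC 2.27, SE 0.15, adjusted p = 4.08e-06). *Acaca*, the entry enzyme of fatty acid synthesis, was at 40.5, 44.8, 35.9 and 43.5 CPM and rose to 148, 140, 116 and 142 CPM (log2FC 1.75, SE 0.10, adjusted p = 2.08e-06). Neither gene showed overlap between groups. *Fads1* had 223, 251, 229 and 233 CPM in CTRL and 491, 482, 424 and 429 CPM with TGFβ (log2FC 0.98, SE 0.09, adjusted p = 2.35e-05), and its groups were likewise apart.

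Other genes of lipid metabolism did not all follow. With TGFβ in LacZ cells, 6 of 11 genes of oxysterol sensing, export and cholesterol esters were lower and 1 was higher, when 19.3% of all genes were lower and 17.5% higher. *Abca1*, the cholesterol exporter, fell from 257 ± 45.9 to 52.5 ± 15.4 CPM (log2FC -2.27, adjusted p = 1.58e-05), and *Apoe* fell by 3.24 on the log2 scale (adjusted p = 0.000213). Of 12 genes of fatty acid uptake and storage, 6 were lower and 1 was higher, with the largest falls in *Lpl* (-3.11, adjusted p = 3.43e-05) and *Cd36* (-2.87, adjusted p = 0.000578). Fatty acid oxidation genes were lower in 5 of 11 cases, among them *Cpt1a* (-0.97, adjusted p = 0.000152), and higher in 2. Of 13 further genes of fatty acid synthesis, 6 rose and 3 fell.

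IL-1β also raised the set in LacZ fibroblasts, by a smaller median. It was compared with the same 4 CTRL libraries as TGFβ. Of the 32 genes, 29 were higher and none was lower, when 11.1% of all genes were called higher and 9.55% lower. The median log2FC was 0.89 (range 0.17 to 1.5), against -0.10 over all genes, and 17 of 18 sterol enzymes, 5 of 6 regulators and 7 of 8 fatty acid enzymes rose. *Tm7sf2*, *Scap* and *Fads1* were not called. With the replicate block *Tm7sf2* (log2FC 0.59, adjusted p = 0.00596) and *Fads1* (0.45, adjusted p = 0.000396) were called as well. The cell type markers called included *Col1a1*, *Dcn* and *Csf1r*, which were higher, and *Vim*, *Plin1*, *S100b*, *Kcnj8*, *Myh11* and *Tnnt2*, which were lower. The sum of the cardiomyocyte markers (0.299 to 1.67 CPM with IL-1β) was below its CTRL range. The pericyte and smooth muscle sum (241 to 758 against 87.8 to 538 CPM) overlapped with CTRL, as did the macrophage sum (46.9 to 156 against 49.8 to 144 CPM). The part of these markers was not tested.

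**Figure D2:**
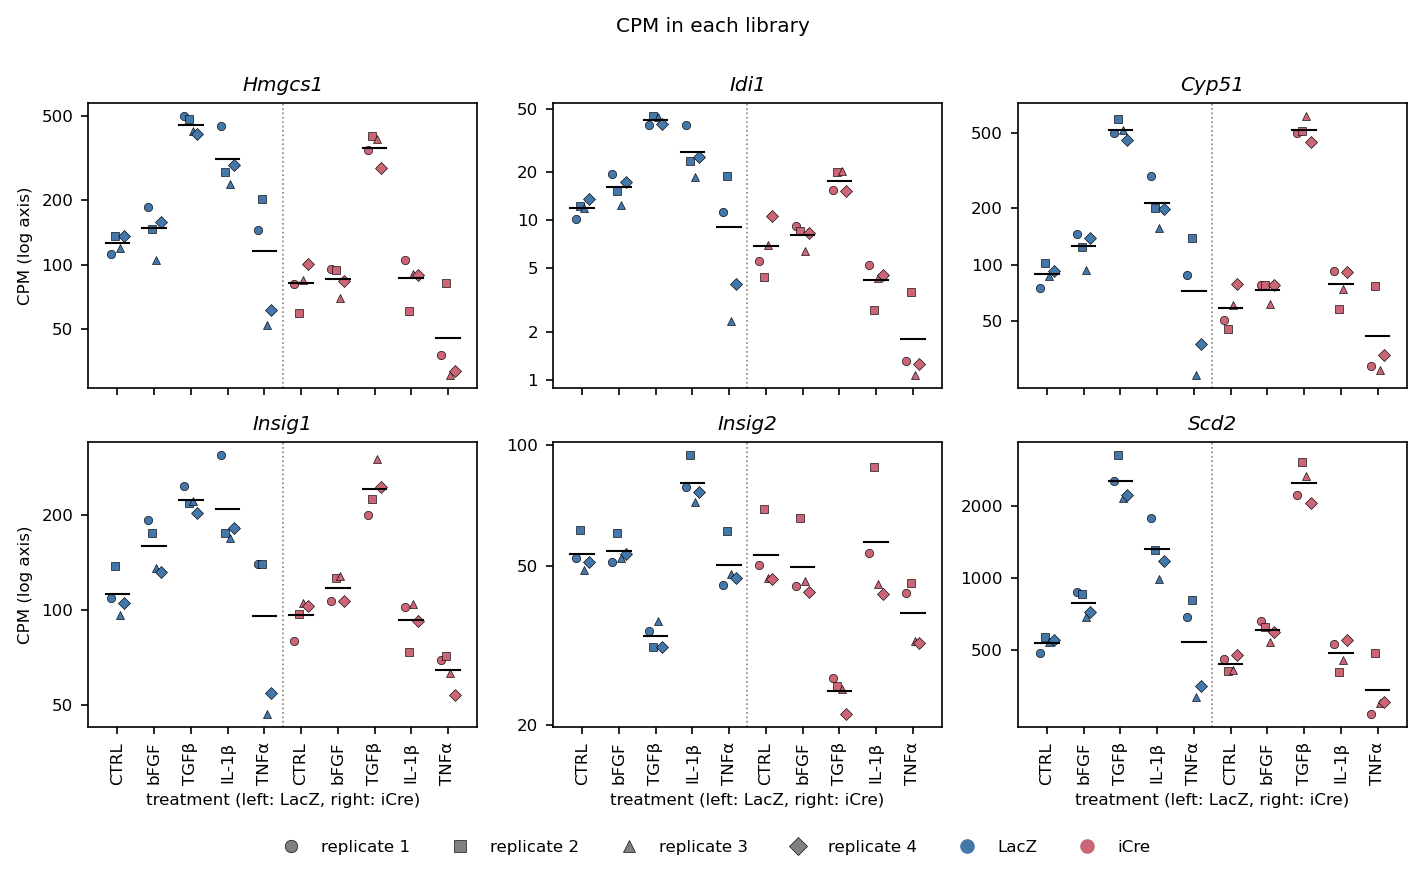
CPM (log axis) of *Hmgcs1*, *Idi1*, *Cyp51*, *Insig1*, *Insig2* and *Scd2* in each of the 40 libraries by group, with the marker shape for the replicate number and a bar for the group mean. *Idi1* with IL-1β spans 18.7 to 39.7 CPM in LacZ and 2.73 to 5.29 CPM in iCre cells, and *Insig2* alone of the 6 is lowest with TGFβ.

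*Stard4* had the largest response to IL-1β in LacZ cells. It had 101, 57.5, 55.4 and 69.7 CPM with IL-1β and at most 27.4 CPM in CTRL (log2FC 1.5, SE 0.18, adjusted p = 0.000423). *Lss* followed, at 31.8, 46.2, 32.2 and 38.2 CPM in CTRL and 139, 96.9, 79.3 and 83.9 CPM with IL-1β (log2FC 1.44, SE 0.19, adjusted p = 0.000612). *Hmgcs1* reached 448, 271, 238 and 295 CPM, against 112 to 136 CPM in CTRL (log2FC 1.33, SE 0.18, adjusted p = 0.000907). Replicate 1 was the highest IL-1β library for each of these 3 genes, and no IL-1β library overlapped with CTRL. *Scd2* behaved alike, with 1793, 1311, 994 and 1184 CPM (log2FC 1.31, SE 0.18, adjusted p = 0.000723).

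All the regulators except *Scap* rose with IL-1β. *Insig2*, which TGFβ lowered, was at 78.6, 94.2, 72.3 and 76.4 CPM, above all CTRL libraries (log2FC 0.60, SE 0.10, adjusted p = 0.00242). It was the member whose LacZ libraries moved without overlap in opposite directions under these 2 ligands. *Insig1* was at 308, 175, 169 and 182 CPM (log2FC 0.91, SE 0.20, adjusted p = 0.009), *Srebf2* at 347, 271, 228 and 241 CPM (0.85, SE 0.14, adjusted p = 0.0019) and *Srebf1* at 153, 112, 127 and 125 CPM (0.62, SE 0.12, adjusted p = 0.00633). *Scap* had 107, 126, 113 and 107 CPM, which overlapped with CTRL (log2FC 0.17, adjusted p = 0.189).

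Beside the 32 genes, *Gpam*, which starts glycerolipid synthesis, rose with IL-1β in LacZ cells from 105 ± 11.0 to 345 ± 41.6 CPM (log2FC 1.73, adjusted p = 1.12e-05), as 1 of 5 further fatty acid synthesis genes that rose of 13, and 1 fell. Of 11 genes of oxysterol sensing, export and cholesterol esters, 2 rose and 2 fell, when 11.1% of all genes were higher and 9.55% lower. *Ch25h*, which makes the oxysterol 25-hydroxycholesterol, rose from 10.9 ± 1.79 to 90.4 ± 7.49 CPM (log2FC 3.06, adjusted p = 1.01e-06), and *Apoe* fell by 1.78 on the log2 scale (adjusted p = 0.00184). Of 12 genes of fatty acid uptake and storage, 3 rose and 6 fell. *Dgat2*, the last enzyme of triglyceride synthesis, rose from 4.97 ± 1.38 to 23.4 ± 8.0 CPM (2.25, adjusted p = 0.000759), whereas the fatty acid binding protein genes *Fabp3* and *Fabp5* fell by 1.96 (adjusted p = 0.00226) and 1.49 (adjusted p = 0.00297) on the log2 scale.

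TNFα changed few of the genes in LacZ fibroblasts, and its 4 replicates differed widely. Of the 32 genes, 3 were higher and 2 lower than in CTRL, when 10.9% of all genes were called higher and 10.4% lower. By role, 2 of 18 sterol enzymes were lower, 2 of 6 regulators (*Srebf1* and *Scap*) were higher and 1 of 8 fatty acid enzymes (*Acaca*) was higher. The median log2FC was -0.24, against -0.08 over all genes, and it was -0.52 without replicate 2 and -0.04 without replicate 3 or 4. The fitted log2FC was negative for 16 of 18 sterol enzymes (median -0.30). The summed level of the 18 sterol enzymes was 735, 1133, 284 and 368 CPM with TNFα and 702, 877, 737 and 811 CPM in CTRL, so that replicate 2 lay above all CTRL libraries and replicates 3 and 4 lay below them. *Idi1* had 11.3, 18.9, 2.35 and 4.02 CPM with TNFα, and the squalene epoxidase *Sqle* had 55.4, 96.3, 11.3 and 20.4 CPM, with the same order of libraries. With the replicate block 3 genes were higher and 9 lower, 6 of these sterol enzymes, when 17.2% and 18.4% of all genes were. The cell type markers called included *Col3a1*, *S100b*, *Kcnj8*, *Myh11* and *Tnnt2*, which were lower. The sum of the cardiomyocyte markers (0.944 to 6.65 CPM with TNFα) was below its CTRL range, and the part of these was not tested. Leaving out replicate 2 gave 10 calls of 32 (3 higher and 7 lower), and the counts were 2, 1 and 0 without replicates 1, 3 and 4.

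The called genes under TNFα included enzymes and regulators. *Hsd17b7*, a sterol ketoreductase, was at 41.9, 37.6, 43.1 and 42.2 CPM in CTRL and at 21.8, 30.7, 6.99 and 8.90 CPM with TNFα (log2FC -1.27, SE 0.40, adjusted p = 0.0489). *Pmvk*, the phosphomevalonate kinase, fell from 18.3, 19.1, 17.2 and 18.8 CPM to 11.7, 15.7, 6.77 and 7.77 CPM (log2FC -0.81, SE 0.23, adjusted p = 0.0332). Every TNFα library lay below every CTRL library for both genes. *Srebf1* rose to 146, 109, 103 and 106 CPM (log2FC 0.45, SE 0.13, adjusted p = 0.0366), and *Acaca* rose to 59.2, 61.6, 45.2 and 53.3 CPM (0.42, SE 0.11, adjusted p = 0.0223), both without overlap. *Scap* was at 133, 127, 120 and 113 CPM, and its lowest library overlapped with the highest CTRL library (log2FC 0.29, SE 0.08, adjusted p = 0.0374). *Fads1* was at 201, 222, 126 and 143 CPM, below every CTRL library, and was called with the block only (log2FC -0.47, adjusted p = 0.000754).

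Of the 11 genes of oxysterol sensing, export and cholesterol esters, 3 rose and 1 fell in TNFα-treated LacZ cells, when 10.9% of all genes were higher and 10.4% lower. *Ch25h* rose to 125 ± 21.6 CPM (log2FC 3.52, SE 0.16, adjusted p = 1.24e-06), and *Apoe* fell by 2.36 on the log2 scale (adjusted p = 0.00314). Of 8 genes of SREBP processing and sterol-regulated degradation, 5 rose and none fell, by up to 0.43 on the log2 scale for *Ubxn8* (adjusted p = 0.0149).

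bFGF raised a few of the genes in LacZ cells. It gave 6 higher and 0 lower of 32, against 7% of all genes called higher and 4.64% lower, and the median log2FC was 0.35 against -0.03 over all genes. The 6 were *Fdps*, *Cyp51*, *Msmo1*, *Stard4*, *Scd1* and *Scd2*. *Stard4* changed most, at 48.4, 39.6, 33.0 and 42.6 CPM against 23.2 to 27.4 CPM in CTRL (log2FC 0.71, SE 0.12, adjusted p = 0.00668), with no overlap. With the replicate block 20 were higher and 0 lower, when 14.2% and 13.1% of all genes were, and the counts were 1, 12, 1 and 0 without replicates 1, 2, 3 and 4. In iCre cells bFGF raised only *Scd2* of the 32 (1.79% of all genes were higher and 0.635% lower), and 16 with the block (9.28% of all genes higher and 7.41% lower). The counts in iCre cells were 0, 2, 0 and 0 without replicates 1, 2, 3 and 4. Of the cell type markers, *Fabp4* and *Thy1* were higher with bFGF in both LacZ and iCre cells, and *Col3a1*, *Dcn*, *Plin1* and *Myh11* were lower in LacZ cells. The sum of the adipocyte markers, nearly all *Fabp4*, was 9.05 to 19 against 2.01 to 4.5 CPM in LacZ and 12.7 to 23.5 against 3.57 to 10.8 CPM in iCre cells. The Schwann cell markers summed to 4.88 to 9.79 against 10.4 to 15.9 CPM in LacZ cells, and overlapped in iCre cells (3.94 to 8.04 against 4.77 to 16.8 CPM). The part of these was not tested.

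The iCre groups addressed whether these responses depend on TAK1. Under TGFβ the set rose in iCre cells as well. Of the 32 genes, 30 were higher and 1 was lower than in iCre CTRL, when 18.6% of all genes were called higher and 18.8% lower, and the median log2FC was 1.83 (range -1.11 to 3.49) against -0.11 over all genes. *Insig2* fell again, from 50.3, 69.1, 46.7 and 46.2 CPM to 26.2, 25.1, 24.7 and 21.3 CPM (log2FC -1.11, SE 0.14, adjusted p = 0.000109), with the groups apart. *Fdps* rose from 11.0, 11.7, 15.3 and 21.9 CPM to 136, 199, 180 and 152 CPM (log2FC 3.49, SE 0.23, adjusted p = 2.1e-06), likewise apart. *Scap* was not called, but it was called lower with GC correction, with the block (log2FC -0.47 with both, adjusted p = 0.000474) and with the filterByExpr filter. Of the cell type markers, *Col1a1*, *Col1a2*, *Thy1* and *Postn* were higher in iCre cells with TGFβ and *Pdgfra*, *Ddr2*, *Dcn*, *Fabp4*, *Cd68*, *Kcnj8* and *Tnnt2* lower. *Csf1r*, *Rgs5* and *Myh11*, listed with *Cd68* or *Kcnj8*, had higher means than in CTRL, and the other macrophage markers had lower means. The macrophage sum (16.3 to 59.2 against 28.1 to 80.7 CPM) and the pericyte and smooth muscle sum (450 to 1368 against 255 to 861 CPM) overlapped with CTRL. The fibroblast markers summed to 46878 to 61773 against 20809 to 37001 CPM in CTRL and the adipocyte markers to 1.27 to 1.59 against 3.57 to 10.8 CPM. The part of these markers was not tested.

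Compared in an interaction test over 16 libraries, 6 of the 32 genes had a larger log2FC with TGFβ in iCre than in LacZ cells. None had a smaller one. Over all genes 0.893% were called in this direction and 3.62% in the other. The mevalonate pathway enzymes *Pmvk* and *Mvk*, with *Fdps*, *Nsdhl*, *Hsd17b7* and *Fads1*, made up the 6. Each of the 6 had a lower CTRL mean in iCre than in LacZ cells. With TGFβ, the iCre and LacZ means were 149 and 145 CPM for *Nsdhl*, and 463 and 457 CPM for *Fads1*. They were 95 and 112 CPM for *Hsd17b7*, 62.1 and 50.9 CPM for *Mvk*, and 167 and 139 CPM for *Fdps*. Without the block, none of the 6 was called between iCre and LacZ cells with TGFβ. *Pmvk* rose from 9.75, 10.5, 11.0 and 11.5 CPM to 47.6, 73.5, 69.9 and 50.1 CPM in iCre cells, and from 17.2 to 19.1 CPM to 31.6, 64.6, 43.9 and 41.1 CPM in LacZ cells, a difference in log2FC of 1.16 (SE 0.25, adjusted p = 0.00977). The iCre CTRL libraries of *Pmvk* lay below those of LacZ. The TGFβ libraries overlapped, with each iCre library above the LacZ library of its number. With GC correction it was 0.91 (adjusted p = 0.0903). For *Fdps* the difference was 1.2 (SE 0.30, adjusted p = 0.0282, or 1.11 with GC correction, adjusted p = 0.109) and for *Nsdhl* 0.94 (SE 0.21, adjusted p = 0.0147). The count was 11 higher and 1, *Insig2*, lower with the block (2.36% and 5.68% of all genes), 2 higher with GC correction (*Nsdhl* and *Hsd17b7*, with 0.404% and 0.485% of all genes) and 6 higher with both (1.2% and 1.85%). It was 4, 8, 0 and 1 without replicates 1, 2, 3 and 4.

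IL-1β raised a smaller group in iCre cells. Of the 32 genes, 7 were higher than in iCre CTRL and none was lower, when 9.38% of all genes were called higher and 6.88% lower, and the median log2FC was 0.34 (0.22 with GC correction) against 0.00 over all genes. The 7 were the sterol enzymes *Mvd*, *Fdps*, *Fdft1*, *Nsdhl* and *Ebp*, with *Srebf2* and the ATP citrate lyase gene *Acly*. *Nsdhl*, the single gene that was also called with GC correction (log2FC 0.56, adjusted p = 0.041, when 6.28% of all genes were higher and 3.52% lower), had 18, 18.7, 19.9 and 25.1 CPM in CTRL and 34.6, 25.6, 25.2 and 29.5 CPM with IL-1β (log2FC 0.51, SE 0.14, adjusted p = 0.0378). Its lowest IL-1β library was just above its highest CTRL library. With the replicate block 19 genes were higher and 1, *Idi1*, was lower, when 18.1% of all genes were higher and 15.6% lower. The counts were 0, 12, 0 and 5 without replicates 1, 2, 3 and 4.

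**Figure D3:**
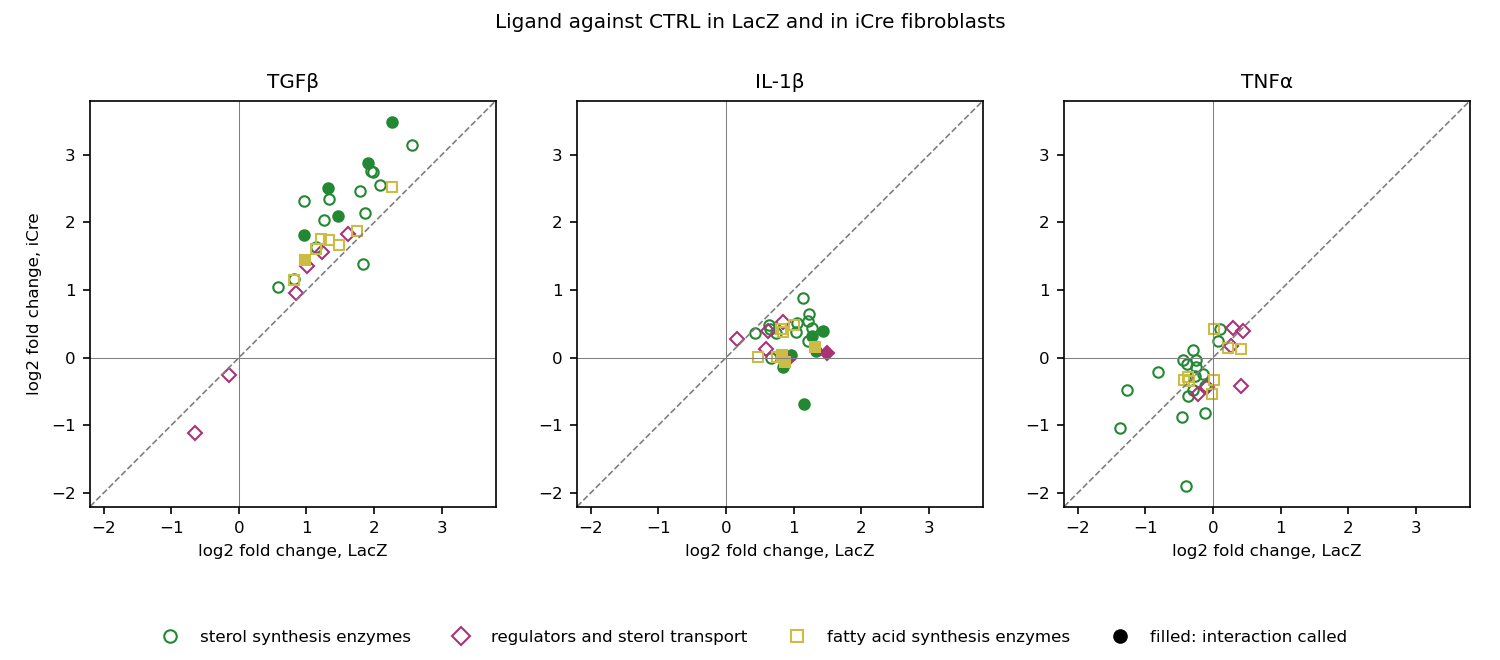
log2FC of each of the 32 genes in LacZ cells (horizontal) and iCre cells (vertical) for TGFβ, IL-1β and TNFα against CTRL of the same virus, filled where the interaction was called, with a dashed line where both are equal. With IL-1β the 11 filled points lie below the line and with TGFβ the 6 filled points lie above it.

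The interaction of IL-1β with deletion was called for 11 of the 32 genes, all with a smaller response in iCre cells. Over all genes 4.95% were called in that direction and 2.76% in the other, and the median difference was -0.67 for the set and 0.08 for all genes. For 28 of the 32 genes the difference was below 0 in all 4 replicate numbers, against 17.7% of all genes. *Idi1* had 39.7, 23.6, 18.7 and 24.9 CPM with IL-1β in LacZ cells and 5.29, 2.73, 4.33 and 4.52 CPM in iCre cells, whereas CTRL libraries had 10.2, 12.3, 11.9 and 13.7 CPM and 5.56, 4.44, 7.06 and 10.6 CPM. The LacZ libraries rose with IL-1β and each iCre library with IL-1β was below the iCre CTRL library of its number, a difference in log2FC of -1.87 (SE 0.38, adjusted p = 0.00546). Part of the *Idi1* exons overlaps with *Gm48574* on the other strand, and the strand setting of the counts was not given.

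*Stard4*, *Hmgcs1* and *Scd2* followed *Idi1* in size. *Stard4* in iCre cells had 16.1, 12.0, 19.4 and 26.3 CPM in CTRL and 20.2, 14.2, 19.3 and 23.2 CPM with IL-1β, which overlapped (interaction -1.43, SE 0.32, adjusted p = 0.00959). *Scd2* in iCre cells had 461, 408, 413 and 477 CPM in CTRL and 532, 406, 454 and 550 CPM with IL-1β, which overlapped too (interaction -1.16, SE 0.22, adjusted p = 0.00283). In LacZ cells the same genes rose without overlap. For *Hmgcs1* the interaction was -1.24 (SE 0.29, adjusted p = 0.0122), and it was not called with GC correction (-1.0, adjusted p = 0.068) but was with block and GC correction (-0.98, adjusted p = 0.00686). *Insig1* differed by -0.95 (SE 0.25, adjusted p = 0.0288), and *Lss*, *Sc5d*, *Dhcr7*, *Acat2*, *Scd1* and *Elovl6* by -0.81 to -1.05. The count was 17 with the block, 7 with GC correction (without *Hmgcs1*, *Sc5d*, *Scd1* and *Elovl6*, at -0.63 to -1.0 and adjusted p of 0.0601 to 0.141) and 20 with both, all lower. Of all genes 8.98% were lower and 7.9% higher with the block, 2.21% and 1.75% with GC correction, and 6.61% and 5.65% with both. The members' count was 4, 11, 1 and 2 without replicates 1, 2, 3 and 4.

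Compared directly with LacZ in the presence of IL-1β, iCre cells had lower levels of 26 of the 32 genes and a higher level of 1, *Scap*. Among all genes 8.98% were called lower and 7.14% higher. The median log2FC was -1.22 (range -2.68 to 0.43), against 0.04 over all genes, and 27 genes had every iCre library below every LacZ library, against 10.4% of all genes. By role, 17 of 18 sterol enzymes, 7 of 8 fatty acid enzymes and 2 of 6 regulators were lower. *Ebp*, *Insig2*, *Srebf1*, *Srebf2* and *Fasn* were not called, and of these *Ebp*, *Insig2*, *Srebf2* and *Fasn* were called lower with the block. The cell type markers called included *Col1a1*, *Col3a1* and *Dcn*, which were lower in iCre cells, and *Fabp4*, *Kcnj8* and *Tnnt2*, which were higher. The fibroblast markers summed to 22845 to 35690 CPM in the iCre libraries and 36618 to 69714 CPM in the LacZ libraries of this comparison. The adipocyte markers summed to 6.88 to 11.7 against 3.14 to 3.74 CPM and the cardiomyocyte markers to 1.93 to 16.3 against 0.299 to 1.67 CPM, and the part of these in the result was not tested.

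*Idi1* differed most, with a log2FC of -2.68 (SE 0.27, adjusted p = 0.000206), or -2.30 with block and GC correction. *Stard4* was lower by a log2FC of -1.91 (SE 0.22, adjusted p = 0.00038), and *Hmgcs1*, with 105, 60.4, 90.1 and 89.6 CPM in iCre cells, by -1.88 (SE 0.23, adjusted p = 0.000473). All 4 iCre libraries of *Hmgcs1* were far below the lowest LacZ library, which had 238 CPM. *Scd2* was lower by -1.46 (SE 0.19, adjusted p = 0.000779), *Insig1* by -1.18 (SE 0.21, adjusted p = 0.00372) and *Fads1* by -0.94 (SE 0.18, adjusted p = 0.00579). *Scap* had 150, 185, 153 and 128 CPM in iCre and 107 to 126 CPM in LacZ cells (log2FC 0.43, SE 0.11, adjusted p = 0.0239). *Scap* has the highest GC content of the 32 genes (59.1%), and its difference was 0.14 with GC correction (adjusted p = 0.486). *Srebf1* had 138, 98.8, 119 and 121 CPM in iCre and 153, 112, 127 and 125 CPM in LacZ cells, which overlapped (log2FC -0.13, adjusted p = 0.552), although every iCre library was below the LacZ library of its number.

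Of 13 further fatty acid synthesis genes, 7 were lower and none was higher in iCre cells with IL-1β, when 8.98% of all genes were lower and 7.14% higher. *Gpam* was at 73.9 ± 32.3 against 345 ± 41.6 CPM (log2FC -2.24, adjusted p = 0.000444) and *Acss2*, which makes acetyl-CoA from acetate, at 13.3 ± 2.28 against 50.4 ± 6.88 CPM (-1.93, adjusted p = 5.88e-05). Of 12 genes of fatty acid uptake and storage, 3 were higher and 1, *Dgat2*, was lower (-1.52, adjusted p = 0.0024). Of the 3, *Fabp3*, *Plin2* and *Lipe*, only *Fabp3* was called with GC correction. The lipid droplet gene *Plin2* was higher, at 199 ± 32.2 against 103 ± 32.2 CPM (log2FC 0.93, adjusted p = 0.0148, or 0.053 with GC correction).

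**Figure D4:**
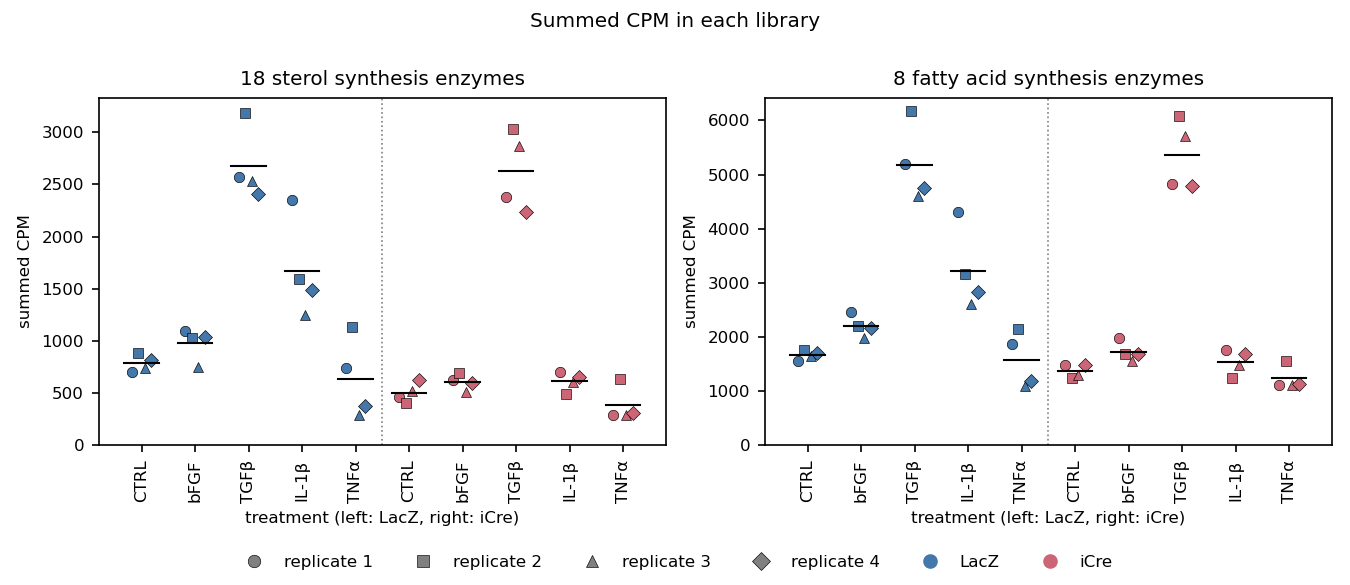
Summed CPM of the 18 sterol enzymes and of the 8 fatty acid enzymes in each library by group, with the marker shape for the replicate number and a bar for the group mean. The sterol sum with IL-1β is 1247 to 2351 CPM in LacZ and 490 to 702 CPM in iCre cells, and with TNFα in LacZ cells it runs from 284 to 1133 CPM.

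With TGFβ, 3 of the genes passed the test between iCre and LacZ cells without the replicate block. *Idi1*, *Sc5d* and *Insig2* were lower in iCre cells and none of the 32 was higher, when 5.87% of all genes were called lower and 2.51% higher. *Idi1* had 15.4, 20.0, 20.3 and 15.2 CPM in iCre and 39.5, 44.9, 44.7 and 40.2 CPM in LacZ cells (log2FC -1.28, SE 0.12, adjusted p = 0.000206), and the groups were well apart also with GC correction (-0.91, adjusted p = 0.0089). *Insig2* was lower by -0.49 (SE 0.10, adjusted p = 0.0119), with GC correction by -0.39 (adjusted p = 0.0875). *Sc5d* had 109, 125, 122 and 100 CPM against 160, 141, 136 and 133 CPM (log2FC -0.35, SE 0.09, adjusted p = 0.0475), and the difference was -0.06 with GC correction (adjusted p = 0.887). *Cyp51*, in contrast, reached 498, 514, 614 and 451 CPM in iCre cells, which overlapped with the 500, 595, 520 and 459 CPM of LacZ cells (log2FC -0.03, adjusted p = 0.963). With the block 10 genes were higher and 7 lower (9.67% and 11.1% of all genes). The 10 were *Mvk*, *Pmvk*, *Mvd*, *Fdps*, *Fdft1*, *Lss*, *Tm7sf2*, *Ebp*, *Fasn* and *Acly*, with log2FC of 0.22 to 0.42, and all but *Tm7sf2* were higher in iCre cells in each of the 4 replicate pairs. With block and GC correction 1, *Lss*, was higher and 2 were lower (3.52% and 5.95%). The counts of calls were 2, 5, 1 and 1 without replicates 1, 2, 3 and 4.

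With TNFα, *Idi1*, *Sc5d* and *Stard4* were lower and *Scap* was higher in iCre than in LacZ cells, when 12.6% of all genes were called lower and 14.8% higher. *Idi1* had 1.32, 3.54, 1.07 and 1.26 CPM in iCre cells, and replicate 2 overlapped with the LacZ range of 2.35 to 18.9 CPM (log2FC -2.32, SE 0.65, adjusted p = 0.0247). *Stard4* was lower by -1.29 (SE 0.37, adjusted p = 0.0255) and *Sc5d* by -1.08 (SE 0.29, adjusted p = 0.0197), with replicate 2 of iCre reaching into the LacZ range for both. With GC correction alone the 3 were not called (adjusted p = 0.0534 for *Idi1*, 0.0537 for *Stard4* and 0.0703 for *Sc5d*). *Scap* had 152, 219, 167 and 148 CPM in iCre and 113 to 133 CPM in LacZ cells (log2FC 0.50, SE 0.13, adjusted p = 0.0183), and 0.21 with GC correction (adjusted p = 0.306). The block gave 1 higher and 10 lower (17.1% and 15.1% of all genes), and block with GC correction 15 lower (13.4% of all genes, with 14.8% higher). The cell type markers called included *Col1a1*, *Col1a2*, *Col3a1*, *Pdgfra* and *Dcn*, which were lower in iCre cells, and *Vim*, *Thy1*, *Fabp4*, *Cd68*, *Rgs5* and *Kcnj8*, which were higher. In iCre cells with TNFα the fibroblast markers summed to 15351 to 23387 CPM, against 25795 to 34599 CPM in LacZ cells, the adipocyte markers to 7.32 to 19.8 against 1.46 to 2.83 CPM and the pericyte and smooth muscle markers to 272 to 1074 against 61.3 to 355 CPM, and the part of these was not tested. The counts were 2, 6, 3 and 0 without replicates 1, 2, 3 and 4.

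Within iCre cells TNFα lowered *Idi1*, *Sc5d*, *Insig1* and *Fads1* and raised *Srebf1* and *Scap*, against 12.3% of all genes called lower and 14.7% higher. *Insig1* fell from 79.6, 96.8, 105 and 103 CPM to 69.4, 71.3, 63.1 and 53.8 CPM (log2FC -0.54, SE 0.12, adjusted p = 0.00737), with no overlap. *Idi1* fell by 1.90 on the log2 scale (SE 0.42, adjusted p = 0.00817). *Srebf1* (0.39, adjusted p = 0.024) and *Scap* (0.44, adjusted p = 0.0489) were not called with GC correction (adjusted p = 0.131 and 0.195). The block gave 4 higher and 11 lower (18.9% and 17.3% of all genes). Without replicate 2 there were 20 calls (2 higher and 18 lower), and 5, 0 and 1 without replicates 1, 3 and 4. The interaction of TNFα with deletion was called for none of the 32, and none had an unadjusted p under 0.05, when 8.38% of all genes were called higher and 7.7% lower, and 14.5% and 12.9% had such a p. DESeq2 called none, and the block called 1 lower, *Insig2* (11.9% of all genes lower and 13.2% higher).

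Of the 11 genes of oxysterol sensing, export and cholesterol esters, 4 had a lower response to TNFα in iCre than in LacZ cells by the interaction test and none a higher one, when 7.7% of all genes were lower and 8.38% higher. *Ch25h* was at 28.5 ± 12.7 CPM in iCre and 125 ± 21.6 CPM in LacZ cells with TNFα (log2FC -2.12, adjusted p = 0.000803), with an interaction of -2.02 (adjusted p = 0.00356). *Abca1* was at 114 ± 71.2 against 546 ± 57.8 CPM (log2FC -2.23, adjusted p = 0.00178), with an interaction of -2.36 (adjusted p = 0.00461). In the list of fatty acid uptake and storage, 3 of 12 had a higher response and none a lower one. *Plin2* of this list was at 234 ± 65.3 against 81.1 ± 14.6 CPM (log2FC 1.55, adjusted p = 0.000649), with an interaction of 1.23 (adjusted p = 0.0164, or 0.0427 with GC correction), whereas with GC correction *Fabp5* and *Dgat1* were not called and *Pnpla2* was called lower (-0.44, adjusted p = 0.0102).

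Of 8 genes of SREBP processing and sterol-regulated degradation, 2, 3 and 2 were lower in iCre than in LacZ cells with TGFβ, IL-1β and TNFα, and none was higher, when 5.87%, 8.98% and 12.6% of all genes were lower. These were *Rnf139* and *Mbtps2* with each ligand and *Ubxn8* with IL-1β. *Rnf139*, a ubiquitin ligase that binds INSIG proteins, was at 22.4 ± 1.38, 20.8 ± 2.40 and 19.2 ± 4.21 CPM in iCre cells with TGFβ, IL-1β and TNFα, and at 45.9 ± 2.62, 42.0 ± 3.70 and 54.5 ± 4.02 CPM in LacZ cells. The log2FC of *Rnf139* was -1.06, -1.03 and -1.48 in these 3 comparisons, and -0.63, -0.61 and -1.06 with GC correction, called in each. *Mbtps2*, the site-2 protease that releases active SREBPs, was lower by -0.92, -0.76 and -0.69, and by -0.37, -0.23 and -0.15 with GC correction (adjusted p = 0.075, 0.127 and 0.279).

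Without ligand, 2 of the genes passed edgeR's test between iCre and LacZ cells, and more did with DESeq2 or with paired replicates. iCre CTRL cells had lower *Pmvk* and *Hsd17b7* than LacZ CTRL cells, and no member was higher, when 0.0476% of all genes were called lower and 0.0278% higher. *Pmvk* had 9.75 to 11.5 CPM in iCre and 17.2 to 19.1 CPM in LacZ cells (log2FC -0.79, SE 0.09, adjusted p = 0.0202). *Hsd17b7* had 23.2, 18.4, 23.3 and 25.1 CPM in iCre and 37.6 to 43.1 CPM in LacZ cells (log2FC -0.88, SE 0.11, adjusted p = 0.0268). Both were apart in all libraries, and 14 of the 32 genes in all had every iCre library below every LacZ library, against 4.35% of all genes. DESeq2 called 16 of the 32 lower and none higher, including 13 of 18 sterol enzymes, when 2.36% of all genes were lower and 2.98% higher. With the replicate block, 22 of the 32 were lower and 1, *Scap*, was higher, including 16 of 18 sterol enzymes, when 7.7% of all genes were lower and 6.79% higher. In all 4 replicate pairs 23 of the 32 genes were lower in iCre cells, against 15.5% of all genes, and the median log2FC was -0.50 against -0.03 over all genes. *Nsdhl*, at 18 to 25.1 CPM in iCre and 30.2 to 51.4 CPM in LacZ cells, had a log2FC of -0.94 (SE 0.16, adjusted p = 0.0706, or 1.6e-05 with the block). *Insig2* (-0.02), *Srebf1* (0.10), *Insig1* (-0.23) and *Srebf2* (-0.18) were not called with or without the block. The counts without the block were 0, 5, 0 and 0 without replicates 1, 2, 3 and 4.

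Between iCre and LacZ cells with bFGF, none of the 25210 genes was called by edgeR (0%), and 20 of the 32 were lower at an unadjusted p under 0.05, when 5.28% of all genes were lower and 4.97% higher at that p. DESeq2 called 15 of the 32 lower, when 0.881% of all genes were lower and 1.03% higher, and edgeR with the block called 24 lower, when 7.22% of all genes were lower and 6.64% higher. The median log2FC was -0.48, and 16 of the 32 had all iCre libraries below all LacZ libraries, against 2.95% of all genes. *Cyp51* differed by -0.77 (adjusted p = 0.244, or 4.45e-07 with the block) and *Hmgcs1*, with 95.0, 94.8, 69.9 and 84.0 CPM against 186, 147, 105 and 158 CPM, by -0.79 (adjusted p = 0.26, or 6.52e-07 with the block). Without replicate 2 the count was 7. The interaction of bFGF with deletion was called for none of the 32 by edgeR with or without the block or by DESeq2, and none had an unadjusted p under 0.05 (0% of all genes called, and 1.82% higher and 1.21% lower at such a p).

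The sterol enzymes varied together over the 40 libraries, which share groups and replicate numbers. Over the 153 pairs of the 18 enzymes, Pearson's r of log2 CPM had a median of 0.93 (0.51 to 0.99), and 0.84 (0.18 to 0.98) for deviations from the group mean. Between sterol and fatty acid enzymes (144 pairs) the medians were 0.89 and 0.64. Of the single libraries, replicate 2 of iCre with TNFα had the highest sterol sum of its group, 635 CPM against 282 to 307 CPM, and replicate 1 of LacZ with IL-1β the highest of its group, 2351 CPM against 1247 to 1591 CPM.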

How the data were processed

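RNA of mouse cardiac fibroblasts was sequenced in 40 libraries (10 groups, 4 replicates). Raw counts were deposited by the authors per Ensembl gene, made from single-end reads with FastQC 0.10.1, STAR on mm10 and HTSeq 0.10.0 (versions per the labels), and neither normalized nor filtered. The library kit is given as a stranded kit in the methods and as another in the labels, and the strand setting is not given in the sources used here. No molecular identifiers were used, and duplicates of a molecule cannot be told from separate molecules.

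The main test was edgeR's quasi-likelihood F test (edgeR 4.0.16, R 4.3.3, TMM normalization, 8 libraries a comparison, 16 for interactions), run over 25210 genes with at least 10 counts in total, with Benjamini-Hochberg adjustment and a threshold of 0.05. The study calls the replicates biological and from male mice, but the labels do not tie a library to an animal, and p-values measure the spread between these samples. The replicate number was not in the fit, and a fit with it as a block was an alternative. Same-number libraries of different groups correlated in their deviations from the group means (mean r 0.57 and lowest 0.03 over 180 pairs, at least 0.30 within each of the 17 comparisons, 10774 genes), and the numbers were therefore taken to pair the samples. The other alternatives were a GC correction (spline with 4 degrees of freedom, GENCODE M21 exons), block with GC correction, DESeq2 1.42.0, RLE size factors, no filter, the filterByExpr filter, all 40 libraries in one fit and leaving out each replicate number. Library numbers of replicate 1 form a range of their own, and values without it are those within the other range. The fits were tested on simulated data.

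The members and lists were chosen with earlier results of these data known. Values in every library are given for genes among the 3 called genes with the largest log2FC in a comparison with TGFβ, IL-1β or TNFα, for *Insig1*, *Srebf1*, *Srebf2* and *Scap*, and for genes that moved without overlap in opposite directions under different ligands. Of each other list at most the 3 called genes with the largest log2FC in a comparison are named, and *Sqle* and *Tm7sf2* were named after their values were seen. A list of further sterol genes and a part of the cell type markers are not reported here. Promoter sequences are those of RefSeq on GRCm38.p6. Tables were made with Python 3.11.15, pandas 2.3.3 and numpy 2.4.6.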

Additional observations from a re-analysis of the deposited data

Results flagged for a closer look

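In 180 groups of 4 libraries (18 genes in 10 groups), 15 had 1 library farther from the others than Dixon's 95% limit, where chance flags about 1 in 20 groups. Replicate 2 of iCre with TNFα was the high library for 8 genes, with 81.8 CPM for *Hmgcs1*, 3.54 for *Idi1*, 31.4 for *Fdps*, 77.2 for *Cyp51*, 32.7 for *Nsdhl*, 26.6 for *Hsd17b7*, 21.6 for *Stard4* and 488 CPM for *Scd2*. Replicate 1 of LacZ with IL-1β was high for *Sc5d* (222 CPM) and *Insig1* (308 CPM), and replicate 1 of LacZ with TNFα for *Srebf1* (146 CPM). Replicate 2 of LacZ with TGFβ was high for *Fdps* (188 CPM) and replicate 2 of iCre with bFGF for *Insig2* (65.8 CPM). Replicate 3 lay apart for *Cyp51* in iCre with bFGF (61.5 CPM) and for *Nsdhl* in LacZ with bFGF (38.2 CPM).

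The log2FC with a ligand differed between iCre and LacZ cells, by edgeR's test of the interaction, for 17 gene and ligand pairs. For TGFβ the log2FC was larger in iCre cells for *Mvk* (0.84, adjusted p = 0.019), *Pmvk* (1.16, adjusted p = 0.00977), *Fdps* (1.2, adjusted p = 0.0282), *Nsdhl* (0.94, adjusted p = 0.0147), *Hsd17b7* (0.60, adjusted p = 0.0368) and *Fads1* (0.44, adjusted p = 0.0197). For IL-1β it was smaller for *Acat2* (-0.97, adjusted p = 0.0261), *Hmgcs1* (-1.24, adjusted p = 0.0122), *Idi1* (-1.87, adjusted p = 0.00546), *Lss* (-1.05, adjusted p = 0.0257), *Sc5d* (-1.0, adjusted p = 0.0208) and *Dhcr7* (-0.93, adjusted p = 0.0215). It was also smaller for *Insig1* (-0.95, adjusted p = 0.0288), *Stard4* (-1.43, adjusted p = 0.00959), *Scd1* (-0.95, adjusted p = 0.0416), *Scd2* (-1.16, adjusted p = 0.00283) and *Elovl6* (-0.81, adjusted p = 0.0388).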

How the results depend on the processing

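The median log2FC of the 32 genes kept its direction, or moved by less than the spread between replicates, under all 12 alternatives in all 17 comparisons. Counts of called members moved by more than 1.5 times as follows, and the cause was not tested. With the replicate block, the counts were 20 (bFGF), 12 (TNFα) in LacZ cells, 16 (bFGF), 20 (IL-1β) and 15 (TNFα) in iCre cells, 23, 24, 17 and 11 for iCre against LacZ in CTRL, bFGF, TGFβ and TNFα, and 12, 17 and 1 for the interactions of TGFβ, IL-1β and TNFα. With GC correction they were 1 for IL-1β in iCre cells, 1 and 2 for iCre against LacZ with TGFβ and TNFα, and 2 and 7 for the interactions of TGFβ and IL-1β. With block and GC correction they were 21 and 12 for bFGF and TNFα in LacZ cells, 14, 18 and 14 for bFGF, IL-1β and TNFα in iCre cells, 23, 25 and 15 for iCre against LacZ in CTRL, bFGF and TNFα, and 20 for the interaction of IL-1β. DESeq2 gave 12 for bFGF in LacZ cells, 16, 15 and 8 for iCre against LacZ in CTRL, bFGF and TNFα, and 10 for the interaction of TGFβ. For bFGF in iCre cells the count was 0 with RLE size factors, without a filter and with all 40 libraries in one fit. filterByExpr gave 4 and 8 for iCre against LacZ in CTRL and TNFα. All 40 libraries in one fit gave 2 for bFGF in LacZ cells, 4 for IL-1β in iCre cells, 1, 1, 1 and 10 for iCre against LacZ in CTRL, bFGF, TGFβ and TNFα, and 1 and 5 for the interactions of TGFβ and IL-1β. Leaving out a replicate number gave 0 to 12 (bFGF), 30 to 31 (TGFβ), 24 to 28 (IL-1β) and 0 to 10 (TNFα) in LacZ cells, 0 to 2, 31, 0 to 12 and 0 to 20 in iCre cells, 0 to 5, 0 to 7, 1 to 5, 23 to 27 and 0 to 6 for iCre against LacZ in CTRL, bFGF, TGFβ, IL-1β and TNFα, and 0, 0 to 8, 1 to 11 and 0 for the interactions of bFGF, TGFβ, IL-1β and TNFα. The block removed no call of the 18 genes whose values are given in every library, and the calls it added are in the counts above or beside the genes. Counting error weighs most on *Idi1*, whose lowest level of 1.07 CPM was the lowest of any member.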
